A study of Homo sapiens with 6 samples.

Results

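The nuclear genes for the subunits of the oxidative phosphorylation complexes were followed in samples labelled as Huh7 cells, given sorafenib or its solvent. Members were the probes whose annotated symbol is SDHA to SDHD or CYC1, or begins with NDUFA, NDUFB, NDUFC, NDUFS or NDUFV, with UQCR, with COX4 to COX8 or with ATP5, leaving out pseudogenes and assembly factors. This gave 83 of the 20046 genes with a named probe, on 111 of 30113 probes. Complex I had 36 genes, complex II 3, complex III 9, complex IV 17 and complex V 17. The iron-sulfur subunit genes SDHB of complex II and UQCRFS1 of complex III were on no named probe and are not among these. ATP5IF1, which encodes an inhibitor of complex V and not a subunit, was kept apart as 1 further gene. The symbols ATP5F1EP2, NDUFB2-AS1 and UQCRBP1 also began with these letters and were left out, since RefSeq does not list them as protein-coding.

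Complexes I to IV pass electrons from NADH and succinate to oxygen and, except for complex II, pump protons across the inner mitochondrial membrane. Complex V, ATP synthase, lets the protons back and makes ATP. All of these complexes but complex II also hold subunits encoded in mitochondrial DNA, so nuclear and mitochondrial genes have to supply matching parts. Hepatocytes are rich in mitochondria, and sorafenib, an oral kinase inhibitor used in hepatocellular carcinoma, has been described to impair mitochondrial respiration in liver cells.

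Huh7 is an established human hepatocellular carcinoma line. The study treated it for 24 h with sorafenib or with its solvent DMSO alone, with 3 arrays for each group, and measured total RNA on an Illumina expression beadchip. The study's text gives the sorafenib dose as 3 mM, and whether that unit is right is not settled here. The labels do not say that replicates were separate cultures, so the spread behind the p-values may be only technical.

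Each sample has a column of probe signals and a column in a separate value table, and these were analysed apart as the signal arrays and the value table. The 2 sets do not hold the same hybridisations. A sample's own columns in the 2 sets had a Spearman correlation of 0.848 to 0.863 across probes, columns of different samples reached 0.846 to 0.863, and columns within a set 0.923 to 0.942. Which of the sets holds the labelled line is therefore open, and levels of the subunit genes were not compared between the sets. All 10 of the hepatocyte genes on a named probe, among them albumin and alpha-fetoprotein, passed the filter in both sets. FGB stood at 6.52 on the signal arrays, near their detection level of 5.99 to 6.19. In the value table it stood at 14.48, above the cut. Of these 10 genes, limma called 4 higher and 3 lower with sorafenib on the signal arrays, where 16.8% and 14.2% of all genes were. In the value table it called 0 higher and 1 lower, where 11.3% and 8.17% of all genes were. Of 12 stromal, endothelial and immune markers, 4 were kept in the signals and 3 in the value table. None of these was called but PDGFRB, lower on the signal arrays, which was above background on 3 DMSO arrays and 0 sorafenib arrays. The endothelial marker PECAM1 was above the cut on 6 value-table columns, at 9.42, and above background on 0 signal arrays. A fit with the replicate number as a block called it lower in the value table, with an adjusted p of 0.0027 in limma. The part of these markers in the results was not tested. The arrays had a median signal of 120 to 145 and 16476 to 17476 probes above background.

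Levels below are log2 values after normalization, and a change is the sorafenib mean minus the DMSO mean on that scale. A gene was called higher or lower where the adjusted p of limma's test was under 0.05. On the signal arrays 74 of the 83 genes were on a probe above background on at least 3 arrays and were tested, and 74 were tested in the value table, of which 73 were shared. The genes on no such probe in either set were COX4I2, COX6A2, COX6B2, COX7A1, COX7B2, COX8C, NDUFA5 and NDUFS6. For these no signal array was above the detection threshold and no value-table column above its cut. Most of the COX genes in that list encode muscle, testis or lung forms of subunits that have a second, widely expressed gene. NDUFB1 was tested in the signals alone and NDUFB4 in the value table alone, both at the low end of the range.

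On the signal arrays 10 of the 74 genes were called higher with sorafenib and 1 was called lower. Among all 10523 genes tested, 16.8% were called higher and 14.2% lower, so the share of higher calls was near the background. At an unadjusted p under 0.05 there were 25 higher, beside 22.4% of all genes, and 2 lower, beside 20.9%. Scaling the arrays to a common median in place of quantile normalization left 1 higher and 0 lower calls, and 971 and 834 genes in all. The higher calls were 5 without DMSO replicate 1, 6 without DMSO replicate 2 or sorafenib replicate 3, and 4 without sorafenib replicate 2. The direction of the changes was less even. The change was above 0 for 52 of 74 genes, against 49.7% of all genes, and their median was 0.09 against −0.00 for all genes. That median was 0.05 without DMSO replicate 1 and 0.06 with median scaling, where the median of all genes was −0.02. All sorafenib arrays lay above all DMSO arrays for 28 genes, against 24.6% of all genes, and below them for 5, against 22.8%. In bulk RNA a changed share of one kind of cell and a changed amount of RNA per cell cannot be told apart.

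Of 74 genes in the value table, 6 were called higher and 2 lower, where 11.3% and 8.17% of all 10595 genes were. At an unadjusted p under 0.05 there were 10 higher, beside 19.0% of all genes, and 7 lower, beside 15.6%. The change was above 0 for 38 of 74 genes, against 51.6% of all genes, and the median of 0.02 lay beside 0.01 for all genes. Sorafenib columns lay above all DMSO columns for 16 genes (21.7% of all genes) and below for 10 (18.1%). Higher calls fell to 3 without DMSO replicate 1 and to 2 without sorafenib replicate 1 or 2. The tilt towards higher levels on the signal arrays was thus not found for the whole group in the value table.

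**Figure D1:**
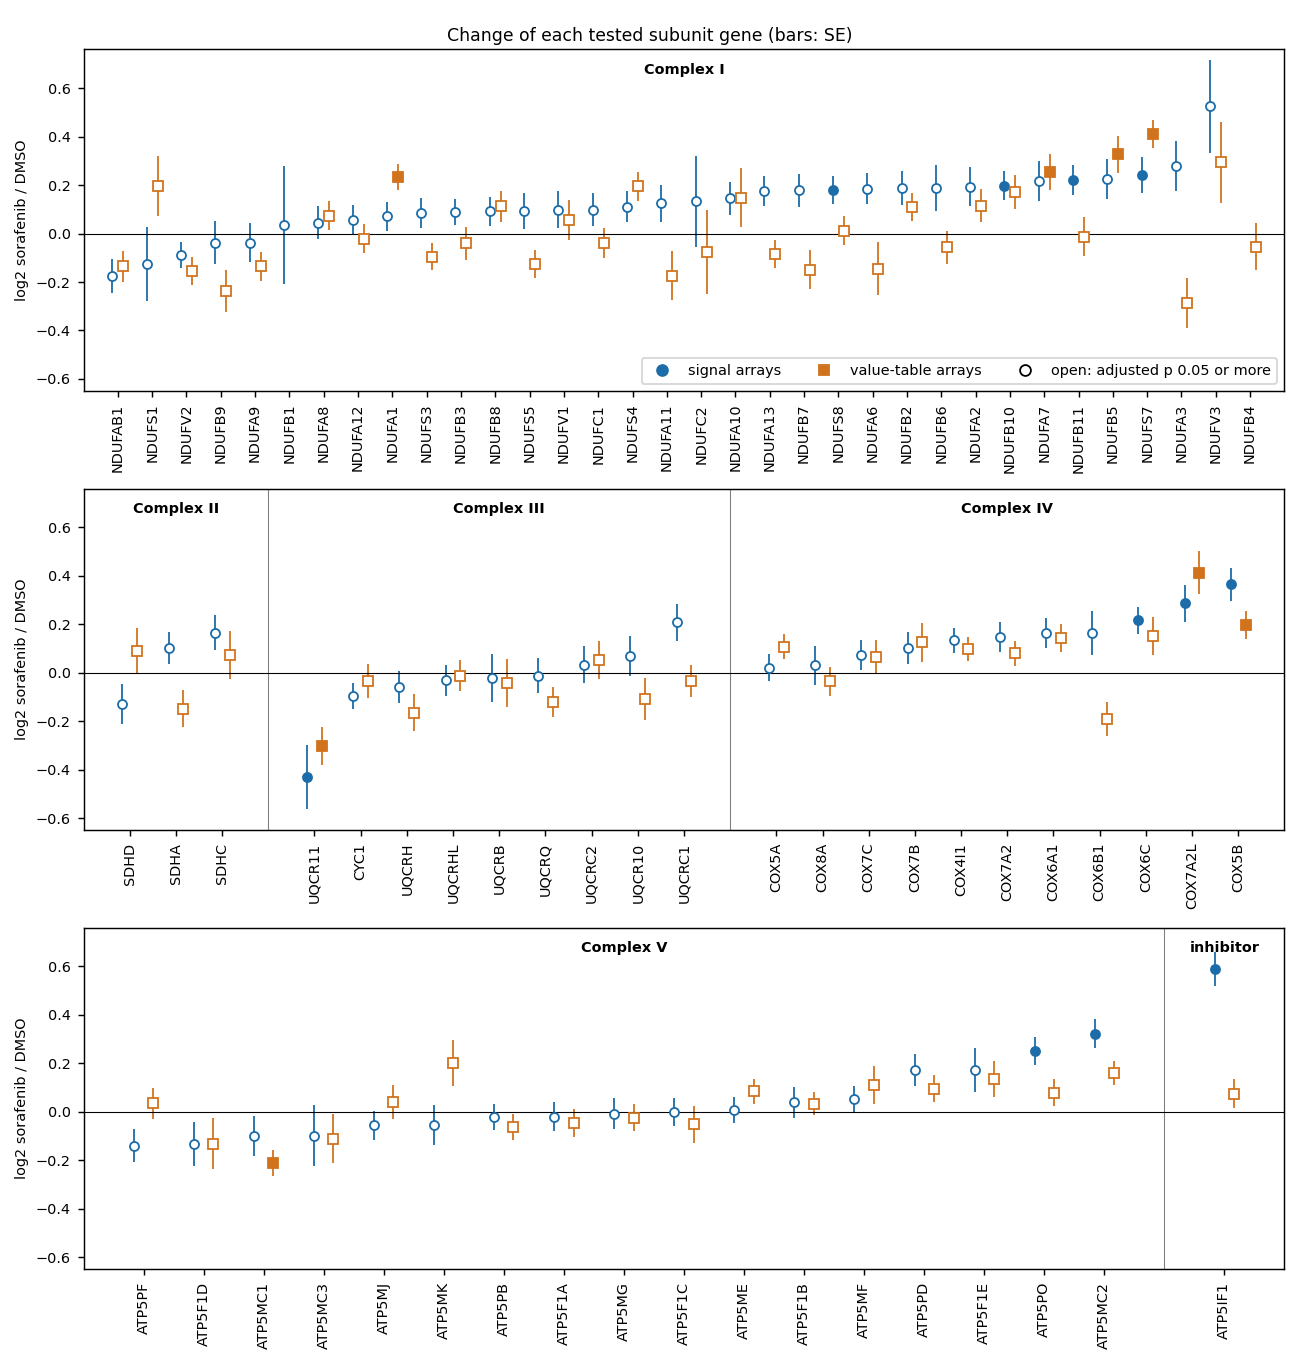
Change of each tested gene (sorafenib minus DMSO, log2, with SE bars) by complex, with blue circles for the signal arrays and orange squares for the value table, filled where limma's adjusted p was under 0.05 and open otherwise. All 11 complex IV genes lie above 0 on the signal arrays (10 with median scaling) and 9 of 11 in the value table, while UQCR11 of complex III is the lowest gene in both. Of all genes tested, 49.7% and 51.6% had a change above 0.

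Whether complexes differ from each other was not tested, since subunit genes are not replicates. Complex IV had a median of 0.15 on the signal arrays and 0.11 in the value table. Complex I stood at 0.12 and −0.02, complex II at 0.10 and 0.07, complex III at −0.02 and −0.04, and complex V at −0.01 and 0.03. The order was not fixed. On the signal arrays the median of complex I was above that of complex IV without DMSO replicate 2 (0.160 and 0.159), DMSO replicate 3 (0.163 and 0.140) or sorafenib replicate 1 (0.156 and 0.155), and with no filter (0.104 and 0.073). Complex II was above complex IV in the value table without DMSO replicate 3 (0.111 and 0.096) and with no filter (0.074 and 0.064). With no filter it was above complex IV on the signal arrays too (0.102 and 0.073). Over the genes tested in both sets, 33 of 73 had a change above 0 in both, against 34.0% of all 9560 such genes, 17 had one below 0 in both, against 34.0%, and 23 had opposite signs. All sorafenib values were above all DMSO values in both sets for 12 of the 73, against 11.3% of all such genes, and below them in both for 3, against 9.51%.

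Array by array, the deviations of a complex's genes from their DMSO means were averaged. For complex IV the DMSO arrays ran from −0.06 to 0.04 and the sorafenib arrays from 0.13 to 0.17 on the signal arrays. Value-table columns ran from −0.01 to 0.01 with DMSO and from 0.08 to 0.14 with sorafenib. The groups did not overlap in either set. For complex I the signal arrays ran from −0.08 to 0.05 with DMSO and from 0.08 to 0.17 with sorafenib, and the groups overlapped in the value table. For complex III the value-table columns were −0.02 to 0.03 with DMSO and −0.12 to −0.06 with sorafenib, and the groups overlapped on the signal arrays. Those of complexes II and V overlapped in both sets. Over all genes tested the means also separated in the value table, from −0.0075 to 0.0067 with DMSO and from 0.0151 to 0.0208 with sorafenib. On the signal arrays the all-gene means overlapped, from −0.0076 to 0.0116 with DMSO and from 0.0068 to 0.0214 with sorafenib. DMSO replicate 1 was the lowest of the DMSO signal arrays for each of the 5 complexes. Without it the median of complex I on the signal arrays was 0.08, that of complex IV 0.10 and that of complex III −0.07.

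**Figure D2:**
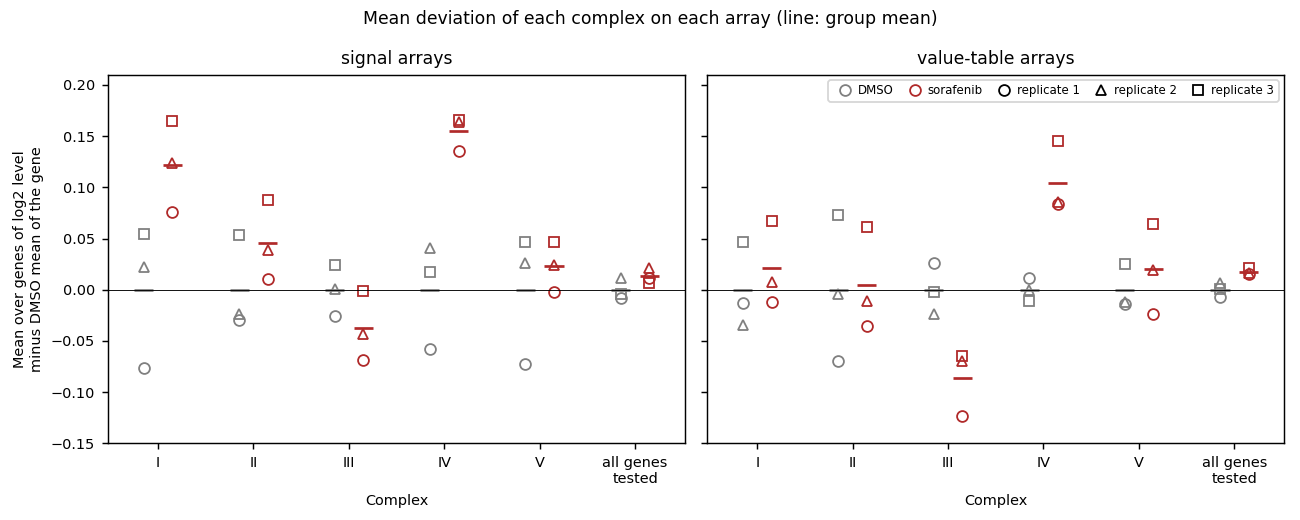
Mean over the genes of a complex of each array's log2 level minus the gene's DMSO mean, for the signal arrays (left) and the value table (right), with DMSO in grey, sorafenib in red, a symbol for each replicate and a line for the mean of 3. Sorafenib arrays lie above all DMSO arrays for complex IV in both panels, and every complex but IV overlaps in at least 1 panel. The mean over all genes tested, plotted last, also separates in the value table and overlaps on the signal arrays.

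The calls that had the same direction in both sets were 4 genes. COX5B and COX7A2L of complex IV and NDUFS7 of complex I were higher, and UQCR11 of complex III was lower. The 3 shared higher calls were 30% of those on the signal arrays and 50% of those in the value table. Over all genes tested in both sets the shares were 34.4% and 51.6%, from 532 shared higher calls, so the subunit genes were shared about as often as any gene. The arrays of each of the called genes are shown in the plot of levels by array.

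Since these 4 genes moved alike in both sets, their promoters are given here as RefSeq places them on GRCh38.p14, each 300 bases long on the strand of the gene, from 250 bases before its start to 50 after. COX5B lies at chr2:97645812-97646111 on the plus strand, COX7A2L at chr2:42361168-42361467 on the minus strand, NDUFS7 at chr19:1383657-1383956 on the plus strand and UQCR11 at chr19:1605413-1605712 on the minus strand. Capitals mark matches on either strand to the letters TGCGCA, a half-site of the factor NRF1, CCGGAAG for ETS factors such as GABP, and ATGGCGG for YY1, all known to act on promoters of respiratory genes.
COX5B: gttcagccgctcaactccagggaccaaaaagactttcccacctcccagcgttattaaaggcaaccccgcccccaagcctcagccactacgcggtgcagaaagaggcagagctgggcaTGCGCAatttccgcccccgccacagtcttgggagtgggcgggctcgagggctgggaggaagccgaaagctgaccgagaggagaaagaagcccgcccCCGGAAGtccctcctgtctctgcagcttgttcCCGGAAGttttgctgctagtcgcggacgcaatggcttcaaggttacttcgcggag
COX7A2L: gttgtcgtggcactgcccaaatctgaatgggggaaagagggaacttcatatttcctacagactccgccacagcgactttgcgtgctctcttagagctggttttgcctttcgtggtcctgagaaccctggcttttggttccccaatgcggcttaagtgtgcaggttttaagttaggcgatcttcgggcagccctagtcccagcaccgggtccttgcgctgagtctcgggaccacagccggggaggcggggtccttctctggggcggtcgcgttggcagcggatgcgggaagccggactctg
NDUFS7: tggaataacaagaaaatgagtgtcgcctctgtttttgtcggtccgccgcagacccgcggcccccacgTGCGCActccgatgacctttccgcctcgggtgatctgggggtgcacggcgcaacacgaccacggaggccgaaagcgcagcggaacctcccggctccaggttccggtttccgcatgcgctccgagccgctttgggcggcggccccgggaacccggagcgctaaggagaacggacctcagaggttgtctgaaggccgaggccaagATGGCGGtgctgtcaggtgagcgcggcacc
UQCR11: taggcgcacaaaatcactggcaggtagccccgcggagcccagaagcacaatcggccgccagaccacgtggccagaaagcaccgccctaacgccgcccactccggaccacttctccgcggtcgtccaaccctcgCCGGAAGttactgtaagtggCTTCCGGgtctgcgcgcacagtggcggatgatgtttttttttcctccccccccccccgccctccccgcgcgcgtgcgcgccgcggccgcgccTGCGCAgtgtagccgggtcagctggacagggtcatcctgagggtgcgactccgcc
The COX5B promoter held 1 NRF1 and 2 ETS matches, that of UQCR11 likewise 1 and 2, and that of NDUFS7 held 1 NRF1 match and, after the start of the gene, 1 YY1 match. None of the 3 motifs was found in the window of COX7A2L. Of the 83 genes, 68 had a promoter in the table. NRF1 letters were in 27.9% of these, against 10.8% of 15842 promoters of protein-coding genes. ETS letters were in 27.9% against 14.2%, and YY1 letters in 26.5% against 7.63%. The letters GGGCGG of SP1, whose last 5 bases are also those of the YY1 motif, were counted but not capitalised, and were in 58.8% and 58.5%. By complex, YY1 letters were in 13 of 32 promoters of complex I and in 1 of 14 of complex IV, and ETS letters in 5 of 32 and 5 of 14. A match describes the letters and is not a binding site.

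Complex I takes electrons from NADH through a chain of iron-sulfur clusters in its peripheral arm and pumps protons in its membrane arm. Of 33 genes tested on the signal arrays, limma called 4 higher and 0 lower, beside 16.8% and 14.2% of all genes. The change was above 0 for 28, beside 49.7%. The 4 higher calls were 0 with median scaling and 0 without DMSO replicate 1, DMSO replicate 2, sorafenib replicate 2 or sorafenib replicate 3. Of 33 in the value table, 4 were called higher and 0 lower, beside 11.3% and 8.17% of all genes. The change was above 0 for 15, beside 51.6%. The higher calls there were 2 without DMSO replicate 1 and 1 without sorafenib replicate 1 or 2. At an unadjusted p under 0.05 there were 13 higher and 1 lower on the signal arrays, and 6 and 4 in the value table. Of all genes 22.4% and 20.9% were so on the signal arrays, and 19.0% and 15.6% in the value table. The largest call in the value table, and the one shared by both sets, was NDUFS7, which carries the last iron-sulfur cluster before ubiquinone.

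NDUFS7 had levels of 12.09, 12.10 and 12.18 on the DMSO arrays and 12.27, 12.32 and 12.51 on the sorafenib arrays of the signals. Its change of 0.24 ± 0.07 (SE, n = 3 per group) passed limma's test with an adjusted p of 0.036. The value-table columns stood at 12.39, 12.39 and 12.46 with DMSO and at 12.79, 12.79 and 12.89 with sorafenib. There the rise was 0.41 ± 0.06, or 1.33-fold, with an adjusted p of 0.00296 in limma. No sorafenib value was as low as any DMSO value in either set. The value-table call held when any 1 array was left out, while on the signal arrays 4 of the 6 such fits lost it.

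NDUFS8, another iron-sulfur subunit next to NDUFS7 in the chain, rose on the signal arrays from 13.17, 13.11 and 13.16 to 13.28, 13.40 and 13.30. Its change was 0.18 ± 0.06 with an adjusted p of 0.042 in limma, and each of the 6 fits without 1 array lost the call. Its value-table level was 14.81 ± 0.05 with DMSO and 14.82 ± 0.10 with sorafenib (SD, n = 3), a change of 0.01. The membrane-arm subunits NDUFB10 and NDUFB11 were the other complex I genes called on the signal arrays. NDUFB11 went from 12.30, 12.43 and 12.45 to 12.59, 12.64 and 12.61, a rise of 0.22, and its value-table change was −0.01. NDUFB10 went from 11.55, 11.47 and 11.51 to 11.72, 11.68 and 11.71, a rise of 0.20, beside 0.17 in the value table with an adjusted p of 0.127 in limma. The groups of NDUFB10 did not overlap in the value table either.

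NDUFB5, NDUFA1 and NDUFA7, accessory subunits of complex I, were called higher in the value table. NDUFB5, of the membrane arm, had 13.22, 13.53 and 13.41 with DMSO and 13.72, 13.70 and 13.71 with sorafenib. Its rise was 0.33 ± 0.08, with an adjusted p of 0.020 in limma, and the signal arrays gave 0.23 with an adjusted p of 0.070, or 0.0065 and a call with the replicate as a block. NDUFA1 went from 12.56, 12.56 and 12.61 to 12.80, 12.85 and 12.79 in the value table, a rise of 0.23, beside 0.07 on the signal arrays. For NDUFA7 the value-table columns were 10.84, 10.79 and 10.92 with DMSO and 11.00, 11.12 and 11.18 with sorafenib. Its rises of 0.25 in the value table and 0.22 on the signal arrays were of like size, with adjusted p of 0.045 and 0.080 in limma, the latter 0.020 with the block. Sorafenib values lay above all DMSO values in both sets for 5 of 32 complex I genes and below them for 2, NDUFAB1 and NDUFV2, beside the 11.3% and 9.51% of all genes.

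NDUFAB1, the mitochondrial acyl carrier protein that also serves fatty acid synthesis, had changes of −0.18 and −0.14, and NDUFV2, of the NADH-oxidising module, −0.09 and −0.15. None of these passed the test without the block. With it NDUFAB1 was called lower on the signal arrays and NDUFV2 in the value table, with adjusted p of 0.031 and 0.044 in limma. NDUFA3, a small accessory subunit, had opposite changes in the 2 sets. Its signal levels were 10.59, 10.80 and 10.94 with DMSO and 10.91, 11.06 and 11.18 with sorafenib, a change of 0.28 with an adjusted p of 0.072 in limma. The value-table levels were 11.37, 10.97 and 11.13 and then 10.97, 10.84 and 10.80, a change of −0.29 with an adjusted p of 0.084. NDUFV3 had the largest change of complex I on the signal arrays, 0.52 with an adjusted p of 0.070 in limma, on a dim probe at 6.47 ± 0.32 with DMSO. Its value-table change was 0.29, and the block called it higher in both sets, with adjusted p of 0.017 and 0.012 in limma. Its second probe had a change of −0.30, so the gene's direction was not settled by its probes. The core subunits NDUFV1, which binds NADH, and NDUFS1, the largest iron-sulfur subunit, were not called. NDUFV1 had changes of 0.10 and 0.05, and NDUFS1, on a dim probe, −0.13 and 0.20.

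Same-numbered samples deviated together in the check described with the processing, which does not settle whether the numbers pair the samples. A fit with the replicate as a block called more genes. With it 24 members were called higher on the signal arrays, where 22.4% of all genes were, and 2 lower, where 21.5% were. Complex I had 14 of the higher calls and 1 of the lower, NDUFAB1. The block gave 11 higher and 7 lower calls in the value table, beside 19.1% and 15.5% of all genes. Of these, 8 genes were higher in both sets, against 10.2% of all genes tested in both, and 1, UQCR11, was lower in both, against 8.76%. With the block, NDUFA3 was called in both sets and in opposite directions, with adjusted p of 0.0036 in each by limma.

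**Figure D3:**
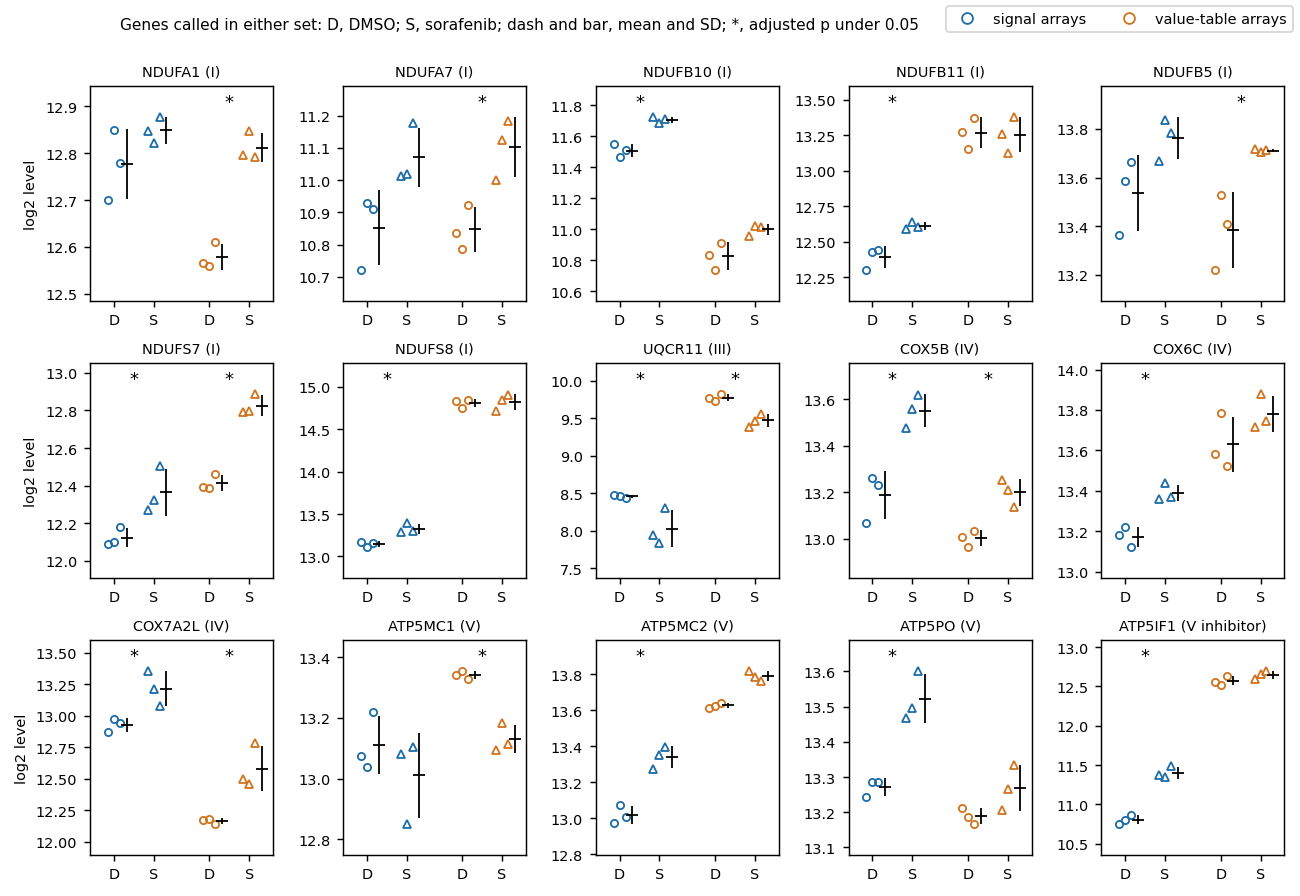
Log2 levels on each array, replicates from left to right, of the genes called in at least 1 set, with circles for DMSO (D), triangles for sorafenib (S), blue for the signal arrays, orange for the value table, a dash and bar for mean and SD (n = 3), a star for an adjusted p under 0.05 in limma, and an axis of its own range for each gene. NDUFS7, COX5B and COX7A2L have every sorafenib value above every DMSO value in both sets, UQCR11 has every one below, and ATP5IF1 separates on the signal arrays alone.

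Complex II, succinate dehydrogenase, joins the citric acid cycle to the chain and is the smallest of the 5. Its genes SDHA, SDHC and SDHD were tested, and limma called none in either set. At an unadjusted p under 0.05 there was 1 higher on the signal arrays and 0 in the value table. Of all genes 22.4% and 19.0% were. SDHC, a membrane anchor, had the largest signal change, 0.16 with an adjusted p of 0.122 in limma, beside 0.07 in the value table. SDHA, the flavoprotein, had 0.10 and −0.15 and SDHD, the other anchor, −0.13 and 0.09. SDHA has pseudogene copies that could share its probe, so its value is uncertain.

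Complex III hands electrons from ubiquinol to cytochrome c. Of its 9 genes, limma called 0 higher and 1 lower in each set. Of all genes 16.8% and 14.2% were so called on the signal arrays and 11.3% and 8.17% in the value table. At an unadjusted p under 0.05 there were 1 and 0 higher, beside 22.4% and 19.0% of all genes. The change was above 0 for 3 genes on the signal arrays and for 1 in the value table, beside 49.7% and 51.6%. The gene called lower was UQCR11, which encodes a small accessory subunit. Signal levels were 8.48, 8.46 and 8.43 with DMSO and 7.94, 7.83 and 8.30 with sorafenib. It fell by 0.43 ± 0.13, or 1.35-fold, with an adjusted p of 0.038 in limma. Value-table columns read 9.77, 9.72 and 9.82 and then 9.38, 9.47 and 9.56. The fall there was 0.30 ± 0.08, or 1.23-fold, with an adjusted p of 0.029. The groups did not overlap in either set, but 5 of 6 fits without 1 signal array and 4 of 6 without 1 value-table column lost the call.

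The core subunit UQCRC1 stood on the other side on the signal arrays, where its change was 0.21 with an adjusted p of 0.071 in limma, or 0.013 and a call with the block. Its value-table change was −0.04. The highest value-table change of the complex was that of UQCRC2, the other core protein, at 0.05. CYC1, the cytochrome c1 that reduces cytochrome c, had −0.10 and −0.03, and UQCRQ, which lies close to cytochrome b, −0.01 and −0.12. UQCRC2, CYC1 and UQCRQ were not called with or without the block. UQCRH, the hinge protein, and UQCRHL are near-identical copies whose transcripts could bind each other's probes, so their values are uncertain. Their changes were −0.06 and −0.03 on the signal arrays and −0.17 and −0.01 in the value table, where UQCRH was called lower with the block, with an adjusted p of 0.029 in limma.

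Complex IV, cytochrome c oxidase, reduces oxygen. Of its 17 genes 11 were tested in each set, and those not tested were the tissue-restricted forms named above. By limma 3 were called higher and 0 lower on the signal arrays, and all 11 changes were above 0 (10 with median scaling), from 0.02 for COX5A to 0.37 for COX5B. With 2 called higher and 0 lower, 9 of 11 changes were above 0 in the value table. At an unadjusted p under 0.05 there were 6 higher and 0 lower, and 3 higher and 1 lower. Median scaling left 0 calls on the signal arrays, and 1 was left without sorafenib replicate 2. The 9 genes above 0 in both sets left COX6B1 and COX8A, whose value-table changes were −0.19 and −0.04 beside 0.16 and 0.03 in the signals. With the block COX6B1 was called lower in the value table, with an adjusted p of 0.024 in limma. For 5 genes of 11, COX4I1, COX5B, COX6A1, COX7A2 and COX7A2L, all sorafenib values were above all DMSO values in both sets, as they were for 11.3% of all genes. With the block COX4I1 and COX6A1 were also called higher on the signal arrays, with adjusted p of 0.040 and 0.027 in limma.

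COX5B, a zinc-binding subunit on the matrix side, had signal levels of 13.07, 13.26 and 13.23 with DMSO and 13.48, 13.56 and 13.62 with sorafenib. It rose by 0.37 ± 0.07, or 1.29-fold, with an adjusted p of 0.00404 in limma, and kept this call without any 1 array. The value-table levels went from 13.01, 12.96 and 13.03 to 13.25, 13.21 and 13.14. That rise was 0.20 ± 0.06 with an adjusted p of 0.043, and 5 of 6 fits without 1 column lost it.

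COX7A2L, also called SCAF1, resembles the COX7A subunits and joins complexes III and IV into supercomplexes. Its signal levels were 12.87, 12.97 and 12.94 with DMSO and 13.35, 13.21 and 13.08 with sorafenib. The rise was 0.29 ± 0.08 with an adjusted p of 0.020 in limma, and 3 of 6 fits without 1 array lost it. Its value-table columns stood at 12.18, 12.18 and 12.14 with DMSO and 12.50, 12.46 and 12.79 with sorafenib. That rise of 0.41 ± 0.09, or 1.33-fold, had an adjusted p of 0.014 and held in all 6 fits without 1 column. COX7A2, the widely expressed COX7A form whose place COX7A2L can take, had changes of 0.15 and 0.08 and was not called.

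COX6C, a small transmembrane subunit, was the other call on the signal arrays. It went from 13.18, 13.22 and 13.12 to 13.36, 13.44 and 13.37, a rise of 0.22 ± 0.06 with an adjusted p of 0.018 in limma. The value-table change was 0.15 with an adjusted p of 0.225, or 0.041 and a call with the block. COX4I1, the widely expressed form of a regulatory subunit, was the brightest gene of the complex, and its changes of 0.13 and 0.10 were not called without the block, with adjusted p of 0.086 and 0.204 in limma. COXFA4, which is annotated elsewhere as NDUFA4 and belongs to complex IV, was not taken by the rule. Its changes were 0.11 and 0.03, neither of them called.

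Complex V has a catalytic F1 part, of which ATP5F1A and ATP5F1B form the sites of ATP synthesis, a c-ring that turns in the membrane, and a peripheral stalk that holds them. All 17 genes were tested in both sets. By limma 2 were called higher and 0 lower on the signal arrays, and 0 higher and 1 lower in the value table, with 7 and 10 changes above 0. At an unadjusted p under 0.05 the counts were 3 and 0, and 1 and 1. Limma called none of the F1 genes on the probe that stood for them, with or without the block. ATP5F1A had changes of −0.02 and −0.05, ATP5F1B, the brightest of all members, 0.04 and 0.03, and ATP5F1C, the central shaft, −0.00 and −0.05. ATP5F1E, of the central shaft, had changes of 0.17 and 0.14, with all sorafenib values above all DMSO values in both sets, but transcripts of its near-identical copy ATP5F1EP2 could bind its probe. ATP5F1D, a further shaft subunit, had −0.13 in both sets. A second probe of it fell by 0.30 in the value table with an adjusted p of 0.031 in limma, while the brighter probe that stood for the gene did not pass.

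The genes ATP5MC1, ATP5MC2 and ATP5MC3 encode the same mature c-ring protein with different import sequences, and they did not move alike. ATP5MC2 had signal levels of 12.97, 13.07 and 13.01 with DMSO and 13.27, 13.35 and 13.40 with sorafenib, a rise of 0.32 ± 0.06 with an adjusted p of 0.00362 in limma. It kept the call in all 6 fits without 1 array. The value-table change was 0.16 with an adjusted p of 0.054, and it was called with the replicate block, with an adjusted p of 0.026. ATP5MC1 was called lower in the value table, from 13.34, 13.36 and 13.33 to 13.10, 13.18 and 13.12. It fell by 0.21 ± 0.05 with an adjusted p of 0.027 in limma, and its second probe fell by 0.34. All 6 fits without 1 column lost the call. The signal change was −0.10 with overlapping groups, and ATP5MC3 had −0.10 and −0.11. The differences between these genes were not tested.

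ATP5PO, the stalk subunit known as OSCP that ties the stalk to F1, was the other call on the signal arrays. It went from 13.24, 13.29 and 13.28 to 13.47, 13.50 and 13.60, a rise of 0.25 ± 0.06 with an adjusted p of 0.010 in limma, and held in all 6 fits without 1 array. Its value-table change was 0.08 with an adjusted p of 0.374. The lowest signal change of complex V was −0.14, for the stalk subunit ATP5PF, and the highest value-table change 0.20, for the small membrane subunit ATP5MK. Both had the other sign in the other set, 0.03 and −0.05. The other kept probes of ATP5PF had −0.28 and −0.04 in the value table, and −0.11 and 0.00 on the signal arrays. The sign of ATP5PF thus depended on the probe. With the block ATP5MK was called higher in the value table, and ATP5PD, a stalk subunit with a change of 0.17, on the signal arrays, with adjusted p of 0.035 and 0.017 in limma.

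ATP5IF1 had the largest change of all 74 genes on the signal arrays. Its protein binds ATP synthase when the proton gradient fails and stops it from hydrolysing ATP. The DMSO arrays read 10.75, 10.81 and 10.87 and the sorafenib arrays 11.37, 11.34 and 11.48. The rise was 0.59 ± 0.07, or 1.51-fold, with an adjusted p of 0.000372 in limma, and a second probe rose by 0.35 with an adjusted p of 0.018. Value-table columns read 12.56, 12.52 and 12.64 with DMSO and 12.60, 12.66 and 12.69 with sorafenib. That change was 0.08 with an adjusted p of 0.437 and overlapping groups. Whether the 2 sets differ in this was not tested. It was the only member that passed limma's test for a change beyond 1.2-fold on the signal arrays, and the only one called when the signal arrays were scaled to a common median in place of quantile normalization.

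Other genes that serve the chain were taken from lists of assembly factors, biogenesis regulators, carriers and citric acid cycle enzymes. Assembly factors build the complexes without staying in them. Of 52 tested, 5 were called higher and 10 lower on the signal arrays, and 5 higher and 2 lower in the value table. Of all genes 16.8% and 14.2% were so called on the signal arrays and 11.3% and 8.17% in the value table. The median change was −0.07 and 0.03. COX20, which helps to insert the COX2 subunit of complex IV, was called lower in both sets. Its signal levels were 10.98, 11.20 and 11.06 with DMSO and 10.40, 10.34 and 10.16 with sorafenib, a fall of 0.78 ± 0.09 with an adjusted p of 0.000297 in limma. The value-table fall was 0.43 ± 0.09 with an adjusted p of 0.015. NDUFAF4, an assembly factor of complex I, fell by 0.66 and by 0.26, with adjusted p of 0.000616 and 0.034. SCO2, a copper chaperone, and CMC2, both of complex IV assembly, were lower on the signal arrays, with changes of −0.44 and −0.36. COX15, which makes the heme A of complex IV, and SDHAF4, of complex II assembly, were higher there, with 0.36 and 0.44. TMEM126B, of complex I assembly, had the largest rise of the list in the value table, 0.36. With the replicate block the assembly factors had 11 higher and 18 lower calls on the signal arrays, beside 22.4% and 21.5% of all genes, and 12 and 7 in the value table, beside 19.1% and 15.5%.

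Of 19 regulators of mitochondrial biogenesis tested on the signal arrays, 0 were called higher and 11 lower, with a median of −0.30, beside the 16.8% and 14.2% of all genes. Of the 11, the coactivator PPARGC1B passed the filter only through the DMSO arrays, and without it 10 of 18 were called lower. Of 17 in the value table, 0 were called higher and 3 lower, with a median of −0.07, beside 11.3% and 8.17%. With the block there were 0 higher and 12 lower on the signal arrays, PPARGC1B among the 12, beside 22.4% and 21.5% of all genes. In the value table there were 1 higher and 4 lower, beside 19.1% and 15.5%. The higher one was SIRT1, a deacetylase, with a change of 0.37 and an adjusted p of 0.0068 in limma. GABPB1, a subunit of the ETS factor GABP, was lower in both sets. It had 10.28, 10.24 and 10.29 with DMSO and 9.66, 9.61 and 9.51 with sorafenib on the signal arrays, a fall of 0.68 ± 0.08 with an adjusted p of 0.000302 in limma. The value-table fall was 0.50 ± 0.07 with an adjusted p of 0.0030. GABPA, the DNA-binding partner of GABPB1, had changes of 0.07 and −0.03 and was not called. It was named after its values were seen.

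TFAM, which packages mitochondrial DNA and starts its transcription, fell by 0.41 and by 0.32, with adjusted p of 0.00244 and 0.030 in limma. TWNK, the mitochondrial DNA helicase, fell by 0.46 and by 0.35. The coactivator PPRC1 and the transcription factors TFB1M and TFB2M were called lower on the signal arrays, with changes of −0.57, −0.47 and −0.44. Their value-table changes were −0.27, 0.18 and −0.15. Of these PPRC1 was called lower there with the block, with an adjusted p of 0.0044 in limma, and the difference between the sets was not tested. PPARGC1B was above background on 3 DMSO arrays and 1 sorafenib array, so its size is not given, and it was not tested in the value table. The coactivator PPARGC1A and SIRT1 had changes of 0.33 and 0.18 on the signal arrays and were not called there. With the block their adjusted p was 0.066 and 0.070 in limma. PPARGC1A was above the cut on 0 value-table columns. No NRF1 probe was above background on any signal array, and NRF1 was tested in neither set. Leaving out DMSO replicate 2 brought the count of lower regulators on the signal arrays to 7, and the value-table count was 1 without DMSO replicate 3 or without sorafenib replicate 1. The mitochondrially encoded subunits were on no named probe and are not analysed here.

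**Figure D4:**
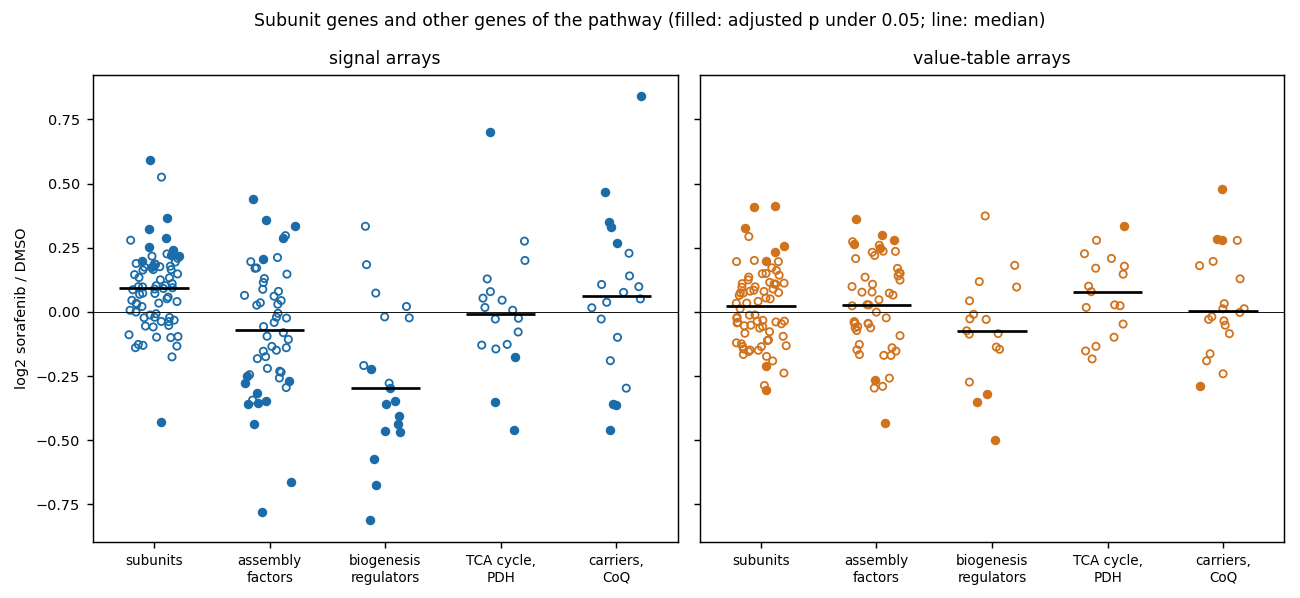
Change of each tested gene (sorafenib minus DMSO, log2) for the subunits and for the lists of related genes, on the signal arrays (left) and in the value table (right), with filled points for genes that passed limma's test at an adjusted p under 0.05 and a line for each list's median. The biogenesis regulators have 11 of 19 genes called lower on the signal arrays and 3 of 17 in the value table, with none called higher in either. Of all genes 14.2% and 8.17% were called lower, and 16.8% and 11.3% higher. Among the 11 is PPARGC1B, which passed the filter only through the DMSO arrays.

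Of 20 electron carriers, metabolite carriers and uncouplers, 5 were called higher and 3 lower on the signal arrays, and 3 higher and 1 lower in the value table. Of all genes 16.8% and 14.2% were so called on the signal arrays and 11.3% and 8.17% in the value table. With the block the counts were 6 and 5 on the signal arrays, beside 22.4% and 21.5% of all genes. They were 5 and 3 in the value table, beside 19.1% and 15.5%. COQ5, a methylase of ubiquinone synthesis, rose by 0.27 and 0.48 in the 2 sets, and SLC25A3, the phosphate carrier that feeds ATP synthase, by 0.33 and 0.28. PDSS1, which makes the side chain of ubiquinone, fell by 0.36 and by 0.29. UCP2, an uncoupling protein homologue, had the largest signal change of the list, from 11.52, 11.58 and 11.64 to 12.37, 12.34 and 12.56. Its value-table change was 0.28 and was called with the block, with an adjusted p of 0.0029 in limma. Of the enzymes of the citric acid cycle and pyruvate dehydrogenase, 1 of 18 was called higher and 3 lower on the signal arrays and 1 of 17 higher and 0 lower in the value table, beside the same shares of all genes. With the block these were 2 and 3, and 4 and 1, beside the shares of all genes given above for the block. IDH2, the NADP-dependent isocitrate dehydrogenase, rose by 0.70 on the signal arrays, and IDH3A, of the NAD-dependent enzyme, fell by 0.46.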

How the data were processed

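RNA of 6 samples labelled Huh7, DNase-treated and biotin-labelled per the labels' protocols, was hybridised to Illumina beadchips. The authors deposited signals as intensity, not normalized between arrays, and gave each a detection p-value, as the file headers name it. The value table they deposited has values that look like log2 values. How it was made and centred, and the scanner software, is not stated in the labels or headers used here. For the signals, limma 3.58.1 in R 4.3.3 corrected the background and equalised the distributions (neqc, offset 16). A probe had to have a detection p below 0.01 on 3 or more of the 6 arrays, which 17115 of 47323 did. In the value table it had to exceed 7.40 on 3 or more columns, which 17122 did. This cut was the mean of the lowest detected levels of the signal arrays, after quantile normalization without background correction. The value table came with no detection p-values, and whether the cut suits its scale was not tested. Where a gene had several kept probes, its brightest was used.

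Differences were tested with limma (lmFit and eBayes, two-sided, with group as the 1 term and a trend over intensity). The Benjamini-Hochberg adjustment covered every probe kept in the set. The precision is limited by the 3 arrays per group. The fitting was tested on simulated data. Same-numbered samples of the 2 groups, numbered in the sample titles, deviated together, with correlations of 0.32 to 0.38 on the signal arrays and 0.32 to 0.67 in the value table. Correlations of samples with different numbers are not given here, so this does not settle whether the numbers pair the samples. The calls come from the fit without the pairing, and those of the fit with it are given beside them. Further alternatives changed the background correction, scaling, filter, trend, array weights, probe choice and threshold, or left out 1 array. The text names every called member, the catalytic or defining subunits on a named probe, the isoform groups and the largest changes of each complex. Per list and set it names up to 6 called genes of largest change. Other genes, such as NDUFV2, UQCRH, UQCRQ, SIRT1, PPARGC1A and ATP5F1C, were named after their values were seen. The members, lists and motifs were chosen with earlier results of these data known. Gene names came from the platform's annotation, and promoters from RefSeq on GRCh38.p14.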

Additional observations from a re-analysis of the deposited data

How the results depend on the processing

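On the signal arrays, the 10 higher and 1 lower members became 1 and 0 with median scaling, 6 and 0 with no filter, 3 and 0 without the intensity trend, 18 and 2 with array weights, and 1 and 0 for a change beyond 1.2-fold. With the replicate block, for samples paired by number, they were 24 and 2. Leaving out 1 array gave 4 to 10 higher and 0 to 2 lower. In the value table, 6 higher and 2 lower became 3 and 0 with no filter, 11 and 7 with the replicate block, and 0 and 0 beyond 1.2-fold. Without the trend 1 was lower. Leaving out 1 column gave 2 to 5 higher and 0 to 4 lower. The lower biogenesis regulators, 11 and 3, were 7 with median scaling, and 2 and 0 beyond 1.2-fold. They ranged from 7 to 11 and from 1 to 2 without 1 array. With the block they were 12 and 4, with 1 higher in the value table, and that fit kept every call of a member made without it. The median of complex IV was 0.0729 on the signal arrays and 0.0644 in the value table with no filter, where undetected genes enter. That of complex III in the value table was −0.095 with array weights. Without 1 array, the complex III medians ranged from −0.0712 to 0.0114 on the signal arrays and from −0.1101 to −0.0388 in the value table, those of complex IV on the signal arrays from 0.0969 to 0.1587, and those of complex V in the value table from −0.0036 to 0.0908. FMC1, an assembly factor called higher in both sets, had −0.0849 on the signal arrays when its probes were averaged. ATP5IF1 was called under all 16 alternatives on the signal arrays, and NDUFS7 and COX7A2L in the value table under 12 of 13, losing it only beyond 1.2-fold. The cause of these shifts was not tested. Genes near the detection level of 5.99 to 6.19, such as NDUFB1, have poorly measured changes.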
